A study of Mus musculus with 8 samples.

Results

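Coagulation and plasminogen activation genes were followed in RAW264.7, a macrophage-like cell line of mouse origin, after exposure to interleukin-13 (IL-13), all-trans retinoic acid (ATRA) or both. The 9 genes were F10, F7, F3, F13a1, Thbd, Procr, Plau, Plaur and Serpinb2, taken by gene name from the array's probe annotation, where 13 of its 41174 probes carry these names. They make up 9 of the 27343 genes named on the array, and 4 of the 15455 genes that could be tested. The genes were selected with the signals of these same arrays in view, so their values are given as a description and carry no p-value.

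The series holds 8 one-colour Agilent arrays. The treatments were IL-13 with ATRA, IL-13 alone, ATRA alone and no addition (control), each with 1 array for 12 h and 1 for 24 h of exposure. In the labels, cells given both agents are called M2 polarization suppressed, cells given IL-13 M2 macrophages, and the ATRA and control cells unpolarized. All cells were the same line in the same serum-containing medium. The labels give no dose and do not say whether the cultures were separate. No treatment was repeated at a time, so each SD below is between the 12 h and 24 h arrays of a treatment, and it may be technical. The SEs come from a fit of treatment and time over all 8 arrays (limma). They measure how far treatment differences disagree between the times, pooled over the 4 treatments and moderated across genes. A gene therefore carries the same SE in every comparison of 2 treatments, whichever treatment varied most. The 12 h arrays shared slide 1 and the 24 h arrays slide 2. Slide and time therefore cannot be told apart, but each treatment difference lies within a slide.

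Clotting is a cascade of serine proteases. Tissue factor (F3) on a cell surface binds factor VII (F7), the pair activates factor X (F10), factor X with its cofactor makes thrombin, and factor XIII (F13a1) crosslinks the fibrin that thrombin forms. Thrombomodulin (Thbd) and the endothelial protein C receptor (Procr) turn thrombin toward activating protein C, which restrains the cascade. In the opposing fibrinolytic system, urokinase (Plau), held on the cell by its receptor (Plaur), converts plasminogen to the protease plasmin, and Serpinb2 (plasminogen activator inhibitor type 2) inhibits urokinase. Most clotting factors in blood are made by the liver. Macrophages can express factor X, factor XIII-A, tissue factor, urokinase and its receptor, and they use the urokinase system in migration and matrix turnover.

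The array measures each gene with probes of 60 bases. Printed here are the probes that carried the F10 result and the extra probes that gave a second reading of Plau and Plaur. The positions are those of the array annotation on mm9, plus strand. The exon or UTR that each probe lies in was not looked up here.
F10 probe A_51_P174961, chr8:13055774-13055833: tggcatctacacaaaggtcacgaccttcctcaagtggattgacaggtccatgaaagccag
Plau probe A_51_P305311, chr14:21659855-21660221: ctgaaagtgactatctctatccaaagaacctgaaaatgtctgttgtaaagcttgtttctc
Plaur probe A_51_P112405, chr7:25259315-25259374: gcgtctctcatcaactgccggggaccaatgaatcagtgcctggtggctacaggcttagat
The 60 bases of this Plau probe span 367 bases of the genome, so its ends lie further apart on the chromosome than its own length. The other Plau probe, A_52_P302433, is at chr14:21662242-21662301 and the other Plaur probe, A_52_P681310, at chr7:25260569-25260628. Procr was read by A_51_P382152 at chr2:155580945-155581004.

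Promoters are shown for F10, the member with the widest span of signal, for F7, its neighbour on the chromosome, and for Procr, whose signal was lower when ATRA was added to IL-13. They run from 250 bases before to 50 bases after the annotated start, are from RefSeq on GRCm38.p6, plus strand, and 7 of the 9 members matched an entry. Capitals mark matches to 7 short motifs that were searched on both strands. The motifs were TTCNNNNGAA and TTCNNNGAA (STAT-type palindromes), AGGTCA (a nuclear receptor half-site), GAGGAA (PU.1 core), TGANTCA (AP-1), GGGCGG (GC box) and TATAAA.
F10, chr8:13037058-13037357: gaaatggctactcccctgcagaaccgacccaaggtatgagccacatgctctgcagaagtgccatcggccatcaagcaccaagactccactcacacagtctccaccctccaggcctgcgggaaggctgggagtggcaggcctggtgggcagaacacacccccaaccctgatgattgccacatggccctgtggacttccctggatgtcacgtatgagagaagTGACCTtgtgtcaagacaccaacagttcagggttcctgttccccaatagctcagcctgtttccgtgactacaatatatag
F7, chr8:13025784-13026083: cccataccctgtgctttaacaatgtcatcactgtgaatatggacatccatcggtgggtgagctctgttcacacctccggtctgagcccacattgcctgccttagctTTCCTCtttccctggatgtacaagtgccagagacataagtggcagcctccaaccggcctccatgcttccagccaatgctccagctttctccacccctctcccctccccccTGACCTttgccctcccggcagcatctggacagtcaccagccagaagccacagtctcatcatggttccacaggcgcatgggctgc
Procr, chr2:155750967-155751266: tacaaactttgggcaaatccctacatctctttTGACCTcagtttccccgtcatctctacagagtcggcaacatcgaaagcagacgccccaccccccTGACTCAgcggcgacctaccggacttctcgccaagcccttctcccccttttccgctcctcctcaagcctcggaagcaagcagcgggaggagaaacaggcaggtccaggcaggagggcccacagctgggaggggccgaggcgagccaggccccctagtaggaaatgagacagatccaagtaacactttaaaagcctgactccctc
All 3 windows held the half-site on the minus strand, where it reads TGACCT. It began at position -30 from the start in F10, at -34 in F7 and at -218 in Procr, and 16.3% of the 32851 promoters in the table hold it. Of the 7 members with an entry only these 3, the ones printed here, held it, so no enrichment is read from them. The Procr window also held TGACTCA at -154, a form of TGANTCA, which 7.81% of promoters hold. The F7 window held TTCCTC at -144, the minus-strand reading of GAGGAA, which 28.3% of promoters hold. Neither STAT-type palindrome was among the letters of these windows, against 6.95% of promoters for TTCNNNNGAA and 8.3% for TTCNNNGAA. GGGCGG, in 35.7% of promoters, and TATAAA, in 13.6%, were not in these windows either. No match overlapped another in the 3 windows, and a match is a description of letters only.

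Values below are scaled signals, the log2 of the background-subtracted probe intensity after each array was set to the same 75th percentile, so 1 unit is a 2-fold step. Levels of different probes are not comparable. Between 54.1% and 61.4% of probes on an array were well above background, none was saturated, and the 75th percentile of intensity was lowest for IL-13 at 12 h (448) and highest for IL-13 at 24 h (739). All 8 macrophage markers were well above background on all 8 arrays. The 3 hepatocyte markers with a probe, Alb, Apoa1 and Ttr, were well above background on 0 arrays, as were the endothelial genes Pecam1 and Cdh5 and the platelet genes Ppbp, Itga2b and Gp9. Other listed markers of those and of stromal cells were measured: Pf4, Kdr and Col1a2 on all 8 arrays, Pdgfrb on 7, Gp1bb on 3 and Tek on 2, while Col1a1 and Col3a1 were on 0. The summed linear signal of the 5 platelet markers was 830 and 594 on the IL-13 with ATRA arrays at 12 h and 24 h, 1070 and 1540 on the IL-13 arrays, 1030 and 1060 on the ATRA arrays and 880 and 790 on the control arrays. Nearly all of this sum was Pf4, at log2 signals of 9.19 to 10.57, while the other platelet markers read 3.6 or lower on every array. The sum therefore follows 1 gene and does not measure platelet content. The part of these transcripts in the members' values was not tested. Mrc1, the mannose receptor gene that marks IL-13-treated macrophages, had scaled signals of 8.37 and 9.47 on the IL-13 arrays against 4.01 and 3.45 on the control arrays. With both agents Mrc1 was lower, at 7.24 and 7.32, but the other listed IL-13 markers were not. Arg1 read 13.57 and 13.84 with both agents against 7.48 and 8.99 with IL-13. Cish read 10.14 and 10.69 with both agents against 10.22 and 10.68 with IL-13. Rarb, a retinoic acid target, had 10.62 and 10.25 on the ATRA arrays against 8.48 and 8.78 on the control arrays.

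F10 was high wherever IL-13 was present and was the member that differed most between treatments. F10 encodes factor X, the protease at the meeting point of the routes into the cascade. Its scaled signal was 9.47 at 12 h and 8.96 at 24 h with IL-13 and ATRA, 9.12 and 9.22 with IL-13 alone, 5.14 and 6.50 with ATRA alone, and 4.93 and 5.02 in control cells. The 4 arrays with IL-13 all lay above the 4 without it. The difference of IL-13 from control was 4.19 at 12 h and 4.20 at 24 h (mean 4.20 ± 0.43, SE), or 18.3-fold and 18.4-fold, so both times gave nearly the same value. The SE is wider than that disagreement because it is pooled over all treatments, among which the ATRA arrays differed most between the times. The difference of IL-13 with ATRA from control was 4.54 and 3.94 (mean 4.24 ± 0.43, SE). Against IL-13 alone, the combined treatment differed by 0.35 at 12 h and by -0.27 at 24 h (mean 0.04 ± 0.43, SE), and the arrays overlapped. In bulk cultures, a different share of expressing cells and a different amount of RNA per cell cannot be told apart.

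The ATRA arrays of F10 differed from each other more than those of any other treatment. ATRA minus control was 0.21 at 12 h and 1.48 at 24 h (mean 0.84 ± 0.43, SE), a 1.16-fold and a 2.78-fold difference. Between 24 h and 12 h the F10 signal changed by 1.36 on the ATRA arrays, by -0.51 with IL-13 and ATRA, by 0.10 with IL-13 and by 0.09 in control cells. IL-13 with ATRA minus ATRA was accordingly 4.33 at 12 h and 2.46 at 24 h (mean 3.40 ± 0.43, SE). In order of mean level, IL-13 with ATRA (9.21 ± 0.36) and IL-13 (9.17 ± 0.07) did not differ beyond their spread, and ATRA (5.82 ± 0.96) and control (4.97 ± 0.06) followed (SD over the 12 h and 24 h arrays).

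**Figure D1:**
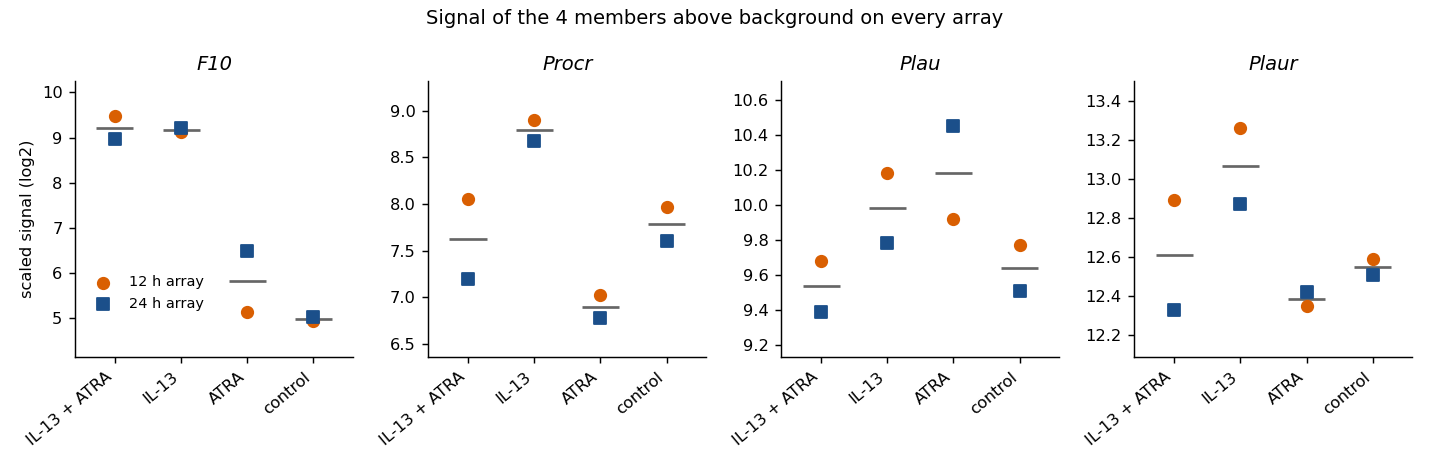
Scaled signal (log2) of F10, Procr, Plau and Plaur on each of the 8 arrays, by treatment, with circles for 12 h, squares for 24 h and a line at the mean of both. Each panel has its own axis, which does not start at 0. F10 lies at 8.96 or higher on the 4 arrays with IL-13 and at 6.50 or lower on the others, and Procr is highest with IL-13 and lowest with ATRA.

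By limma's fit across all genes, with Benjamini-Hochberg adjustment and a threshold of 0.05, F10 was the only 1 of the 4 tested members called higher in IL-13 than in control cells, and no member was called lower. Over all genes 1.27% were called in that comparison. In IL-13 with ATRA against control, F10 was again the 1 member called, in the higher direction, beside 8.5% of all genes. In ATRA against control, 0 of the 4 were called, beside 1.86% of all genes. Since the members were chosen on these contrasts, nothing is read from these counts. The F10 call was lost in both comparisons without the filter on dim probes and when either control array was left out, and in IL-13 against control also when either IL-13 array was left out. The IL-13 difference then lay between 4.09 and 4.31, and the IL-13 with ATRA difference without a control array was 4.13 or 4.35. With normexp background correction it was 2.88 for IL-13 and 3 for IL-13 with ATRA.

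F7, which encodes the protease that binds tissue factor, is the gene next to F10 in the RefSeq order of genes on chromosome 8, and their annotated starts lie 11274 bases apart. Its probe, A_51_P484054 at chr8:13035287-13035346, did not pass the filter. The scaled signal was 4.37 and 3.45 with IL-13 and ATRA at 12 h and 24 h, 3.80 and 3.75 with IL-13, 2 and 2.91 with ATRA, and 2.87 and 2.88 in control cells. It was well above background on 2 arrays only, IL-13 with ATRA at 12 h and IL-13 at 24 h, and values on the other 6 have no order. Where a probe was below background in 1 group, a reduced ratio is given in place of a fold. It is the mean of the brighter group over the dimmer group's mean. Each dim array is set to the lowest signal among its probes well above background if that was higher. The ratio is not a lower bound, since F7 was unflagged at 3.80 and 3.45, above that lowest signal on those arrays (3.68 and 3.10). On this reckoning the F7 ratio was 1.69 for IL-13 over control cells, and 1.85 for IL-13 and ATRA over control cells. It was 1.72 for IL-13 and ATRA over ATRA. In each case 1 of the 2 arrays of the brighter group measured F7, and the other, not well above background, entered the mean at its own signal. The size of the F7 difference is therefore not settled by these ratios.

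With IL-13, the tested neighbours of F10 differed much less from control than F10 did. They were taken by position, after the values of F10 had been seen. IL-13 minus control was 0.19 for Tubgcp3, -0.37 for Atp11a and 0.12 for Mcf2l on the side of F7, and 0.09 for Pcid2, 0.04 for Cul4a and -0.11 for Lamp1 on the other side. With ATRA alone, where F10 differed from control by 0.84, Mcf2l differed by 0.77 and the other 5 by -0.15 to 0.29. With both agents Mcf2l differed by 0.83 and the other 5 by -0.44 to 0.22, against 4.24 for F10. Proz, which encodes the vitamin K-dependent protein Z and lies directly beyond F10, did not pass the filter and was well above background on 1 of 8 arrays.

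Tissue factor starts the cascade, and F3 was near background. Both F3 probes overlap over chr3:121437335-121437354 in the annotation, yet their letters there differ, as shown with the differing bases in capitals.
A_51_P236846, bases over the shared positions: ggacgaacTgaaacGgtaca
A_52_P683413, bases over the shared positions: ggacgaacGgaaacCgtaca
Counted from the first of the 20 shared positions, and with the base of A_51_P236846 first, the 2 differences are T9G and G15C. A_51_P236846 read 3.02 and 2.14 with IL-13 and ATRA at 12 h and 24 h, 3.61 and 3.01 with IL-13, 0.95 and 2.37 with ATRA, and 1.78 and 2.04 in control cells. It was well above background on 1 array, IL-13 at 24 h, the array with the lowest detection limit of the 8 (2.56, against 3.68 with IL-13 at 12 h). At 24 h that signal was just above the limit of the control array (2.98) and under that of the array with IL-13 and ATRA (3.10), so no fold is given. A_52_P683413 was well above background on 0 arrays, with signals of 0.99 to 1.66.

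F13a1, the A chain of factor XIII, was not well above background on any array, with signals of 0.73 to 1.75 from its probe A_51_P507801. Thbd, the thrombin receptor that redirects the enzyme toward protein C, was likewise below the limit on all 8 arrays, at 0.99 to 2.49. Both Serpinb2 probes were below it on all 8 arrays, at 0.38 to 1.49 for A_51_P101146 and 0.96 to 1.87 for A_52_P639522. No fold is given for these 3 genes, since values under the limit have no order.

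**Figure D2:**
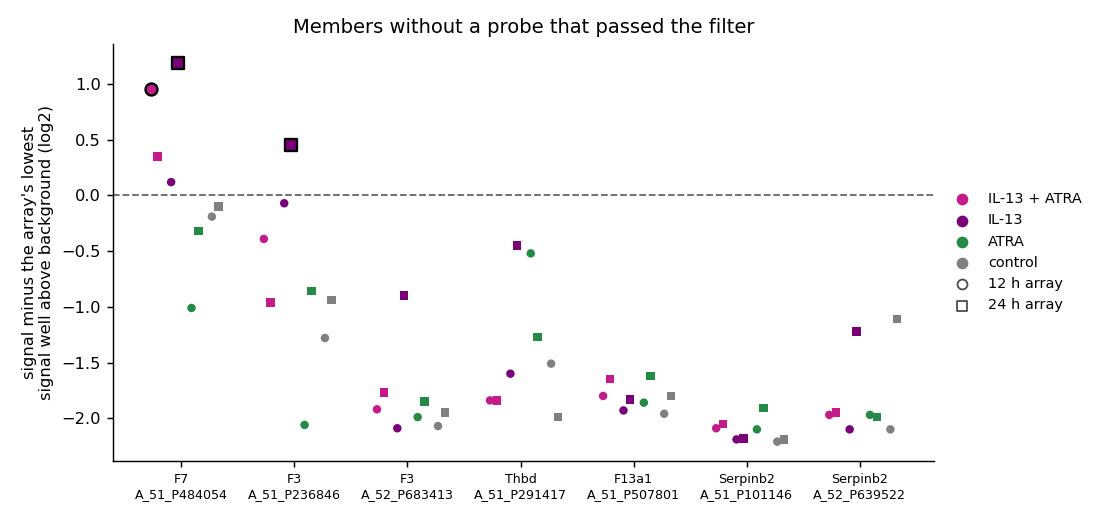
Signal of the 7 probes of F7, F3, Thbd, F13a1 and Serpinb2 minus the lowest signal among probes well above background on the same array (log2), for each array, with circles for 12 h and squares for 24 h. Large outlined points mark arrays where the probe was well above background: F7 on 2 arrays and F3 on 1, all with IL-13. Small F7 points above the dashed line did not carry the flag, which is set per spot.

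Procr, the membrane receptor that presents protein C for activation, was higher with IL-13 and lower with ATRA, and was near the control level with both. Its scaled signal was 8.05 and 7.20 with IL-13 and ATRA at 12 h and 24 h, 8.90 and 8.68 with IL-13, 7.02 and 6.78 with ATRA, and 7.97 and 7.60 in control cells. The IL-13 arrays lay above all others and the ATRA arrays below all others, while the arrays with both agents overlapped those of control cells. IL-13 minus control was 0.93 at 12 h and 1.08 at 24 h (mean 1.01 ± 0.18, SE), a 2.01-fold difference on average. ATRA minus control was -0.95 and -0.82 (mean -0.88 ± 0.18, SE), or 0.543 of the control level. The 2 single treatments therefore differed from control in opposite directions at both times. Mean levels were 7.62 ± 0.60 with IL-13 and ATRA, 8.79 ± 0.16 with IL-13, 6.90 ± 0.17 with ATRA and 7.78 ± 0.26 in control cells (SD over both times).

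With both agents, Procr differed from control by 0.08 at 12 h and by -0.40 at 24 h (mean -0.16 ± 0.18, SE). IL-13 with ATRA minus IL-13 was -0.85 and -1.48 (mean -1.17 ± 0.18, SE), or 0.445 of the level with IL-13 alone, and IL-13 with ATRA minus ATRA was 1.03 and 0.42 (mean 0.72 ± 0.18, SE). In IL-13 with ATRA against IL-13, Procr was the 1 of 4 tested members called by limma, in the lower direction, beside 2.64% of all genes. In IL-13 with ATRA against ATRA, 0 of the 4 were called, beside 0.362% of all genes. The Procr call was lost when any 1 of the 8 arrays was left out, without the filter and when the time term was dropped. Differences lay between -1.45 and -0.88 in those fits, so the call is not stable. The control and ATRA arrays do not enter this difference, which stayed at -1.17 without any 1 of them. Each such fit also has fewer residual degrees of freedom, so a lost call does not show dependence on the values of the array left out. The main fit did not call F10 in IL-13 with ATRA against ATRA. F10 was called higher there when the time term was dropped (3.40), beside 70 of the 15455 genes tested. It was also called with normexp correction (2.53), beside 64 of them. Without the ATRA array at 24 h, where F10 was the higher of the ATRA arrays, the difference was 4.13. F10 was chosen with these arrays in view, so nothing is read from these calls.

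Plau, which encodes urokinase, differed less between treatments. Its probe of higher signal, A_52_P302433, read 9.68 and 9.39 with IL-13 and ATRA at 12 h and 24 h, 10.18 and 9.78 with IL-13, 9.92 and 10.45 with ATRA, and 9.77 and 9.51 in control cells. The highest array was ATRA at 24 h, and on this probe the arrays with both agents overlapped those of control cells. ATRA minus control was 0.15 at 12 h and 0.94 at 24 h (mean 0.54 ± 0.25, SE), and IL-13 minus control was 0.40 and 0.26 (mean 0.33 ± 0.25, SE). IL-13 with ATRA minus control was -0.10 and -0.13 (mean -0.11 ± 0.25, SE). The combined treatment was below each single treatment at both times. Its differences were -0.50 and -0.39 from IL-13 (mean -0.45 ± 0.25, SE) and -0.25 and -1.06 from ATRA (mean -0.65 ± 0.25, SE). The second probe, A_51_P305311, gave 0.00 and 0.92 for ATRA minus control, 0.39 and 0.11 for IL-13 minus control, and -0.23 and -0.27 for both agents minus control, so both probes showed nearly the same ATRA difference at 24 h. Mean levels on A_52_P302433 were 9.53 ± 0.20 with IL-13 and ATRA, 9.98 ± 0.28 with IL-13, 10.19 ± 0.37 with ATRA and 9.64 ± 0.18 in control cells (SD over both times). The ATRA and IL-13 arrays overlapped, and on A_52_P302433 the IL-13 arrays lay just above those of control cells. On A_51_P305311 the IL-13 arrays overlapped those of control cells, and the arrays with both agents lay just below them. The probes therefore differed in which treatments overlapped control.

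Plaur, which encodes the urokinase receptor, was highest with IL-13. The scaled signal of A_52_P681310 was 12.89 and 12.33 with IL-13 and ATRA at 12 h and 24 h, 13.26 and 12.87 with IL-13, 12.35 and 12.42 with ATRA, and 12.59 and 12.51 in control cells. The IL-13 arrays lay above the control arrays, the ATRA arrays lay below them by less, and the 12 h and 24 h arrays with both agents lay on either side of them. IL-13 minus control was 0.68 at 12 h and 0.36 at 24 h (mean 0.52 ± 0.18, SE), a 1.43-fold difference on average, and ATRA minus control was -0.23 and -0.09 (mean -0.16 ± 0.18, SE). IL-13 with ATRA minus control was 0.31 and -0.19 (mean 0.06 ± 0.18, SE). IL-13 with ATRA minus IL-13 was -0.37 and -0.55 (mean -0.46 ± 0.18, SE), lower at both times, although the arrays of the 2 treatments overlapped. IL-13 with ATRA minus ATRA was 0.54 and -0.10 (mean 0.22 ± 0.18, SE). The second probe, A_51_P112405, gave 0.88 and 0.25 for IL-13 minus control and -0.41 and -0.61 for IL-13 with ATRA minus IL-13, the same signs as the first. Mean levels on A_52_P681310 were 12.61 ± 0.40 with IL-13 and ATRA, 13.07 ± 0.27 with IL-13, 12.39 ± 0.05 with ATRA and 12.55 ± 0.05 in control cells (SD over both times), and the arrays with both agents overlapped those of each other treatment.

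**Figure D3:**
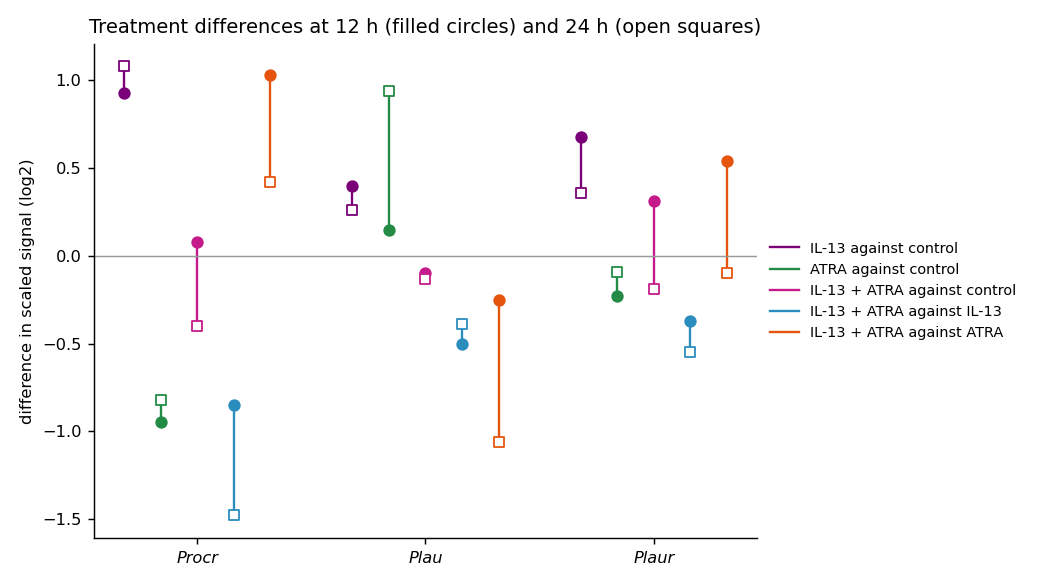
Differences in scaled signal (log2) of Procr, Plau and Plaur for the 5 treatment comparisons, with filled circles for 12 h and open squares for 24 h joined by a line whose length is the disagreement between the times. F10 is left out because its differences reach 4.54. Procr is above 0 for IL-13 against control and below 0 for ATRA against control and for IL-13 with ATRA against IL-13 at both times.

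Over the 4 tested members, the median difference was 0.76 in IL-13 against control, 0.19 in ATRA against control, -0.03 in IL-13 with ATRA against control, -0.45 in IL-13 with ATRA against IL-13 and 0.47 in IL-13 with ATRA against ATRA. Over all genes tested the medians were 0.00, -0.02, -0.03, -0.01 and 0.00 in the same order. The members were chosen with these arrays in view, so nothing is read from the contrast of their medians with those of all genes. The comparisons also share arrays, so these medians are not independent of each other. All 4 members that passed the filter did so on all 8 arrays, and the 5 that did not pass are not part of these medians.

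The combined treatment was set against the sum of the single-treatment differences. For F10 the sum was 4.41 at 12 h and 5.68 at 24 h, against 4.54 and 3.94 measured with both agents, a departure of 0.14 and of -1.74 (mean -0.80 ± 0.60, SE). Between 12 h and 24 h the F10 signal changed by 1.36 on the ATRA arrays and by -0.51 with IL-13 and ATRA. The part of each in the 24 h departure was not tested. For Plau the departure was -0.65 and -1.33 (mean -0.99 ± 0.35, SE), with the combined signal under the sum at both times. The second Plau probe gave -0.61 and -1.30. For Procr the departure was 0.09 and -0.67 (mean -0.29 ± 0.26, SE) and for Plaur it was -0.14 and -0.46 (mean -0.30 ± 0.26, SE), in both cases larger at 24 h.

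**Figure D4:**
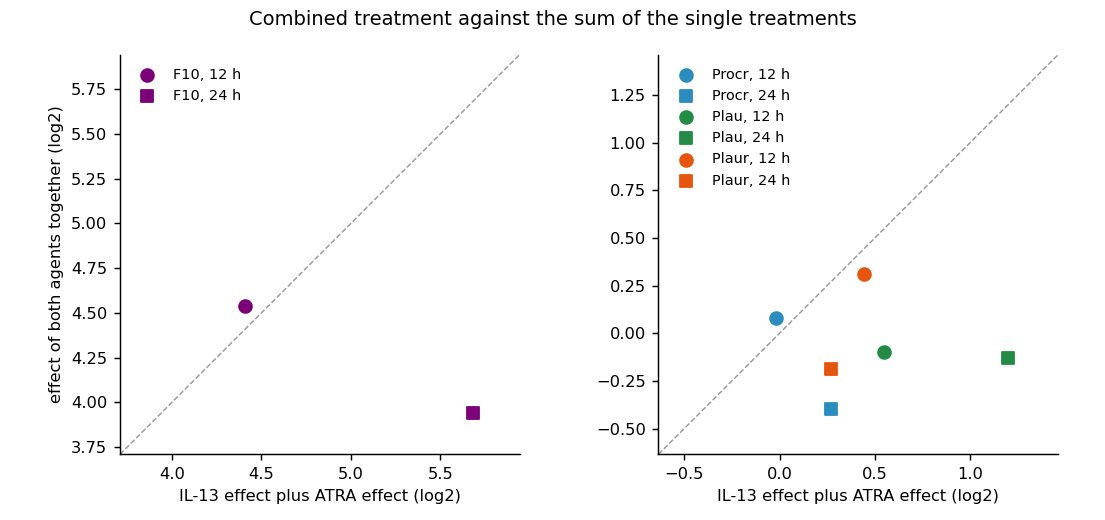
Difference of IL-13 with ATRA from control against the sum of the IL-13 and ATRA differences from control (both log2), with F10 on the left and Procr, Plau and Plaur on the right, circles for 12 h and squares for 24 h. The dashed line marks equality. The 24 h points of all 4 genes lie under the line, with F10 at 3.94 against a sum of 5.68.

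The members did not move as 1 group across the 8 arrays. Plaur and Procr had the most similar profiles, with Pearson's r of 0.913 and Spearman's rho of 0.881. F10 gave r of 0.588 with Plaur and 0.517 with Procr, and Plau gave 0.234 with Plaur, -0.0748 with F10 and -0.0448 with Procr. The points share treatments, slides and array scaling, and these values describe 8 arrays only.

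Among 3230 tested genes that spanned at least 1 log2 unit, those most like each member over the 8 arrays were named. For F10 they were Gstt4 (r = 0.994) and Gstt1 (r = 0.985), which encode glutathione transferases of the theta class, and Igf1 (r = 0.99), a growth factor. The arrays with and without IL-13 form separate clusters for F10, so these r values are taken across 2 clusters of 4 arrays. For Procr they were Dusp4 (r = 0.983), a phosphatase of MAP kinases, 5830432E09Rik (r = 0.983) and Dlg3 (r = 0.98), a scaffold protein. For Plaur they were Eno2 (r = 0.963), a glycolytic enolase, Cd63 (r = 0.958), a tetraspanin, and Tmem171 (r = 0.957). For Plau the nearest genes were less alike: Aif1 (r = 0.883), a macrophage actin-binding protein, Fermt2 (r = 0.852), an integrin-binding protein, and Marcksl1 (r = 0.832).

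A list of 43 other genes of these pathways was examined by role, and 17 passed the filter. Of 16 further factors, fibrinogen chains and carboxylation genes, 4 were tested: F9, F11, and the vitamin K enzymes Ggcx and Vkorc1. None of the 4 protease-activated receptors was. Of 9 anticoagulants 5 were tested, among them Tfpi, the inhibitor of the tissue factor pathway, Serpinc1 (antithrombin) and Pros1 (protein S). Of 14 plasminogen genes 8 were tested, among them Plat (tissue plasminogen activator), the plasminogen receptor gene Plgrkt, and Anxa2 and S100a10, whose products form a surface complex that binds plasminogen. Prothrombin (F2), factor V (F5) and the 3 fibrinogen chains were not well above background on any array, and plasminogen (Plg) was on 1.

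Of the 17, 1 gene was called in 1 comparison. Anxa5, which encodes annexin A5, a phosphatidylserine-binding protein that slows clotting on membranes, fell with IL-13 and ATRA. Its scaled signal was 15.04 and 14.63 with IL-13 and ATRA at 12 h and 24 h against 15.66 and 15.79 in control cells, and the arrays did not overlap. The difference was -0.89 ± 0.16 (SE; limma adjusted p = 0.0326). That is 5.88% of the 17 genes, beside the 8.5% over all genes. The call was lost when a control array, an ATRA array or an array with both agents was left out, with limma adjusted p between 0.0721 and 0.166 in those fits and differences between -1.09 and -0.69, and with no filter (adjusted p = 0.157). Over all alternatives the adjusted p of Anxa5 ran from 0.0122 to 0.166.

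In the other 4 comparisons limma called 0 of the 17. At an unadjusted p under 0.05 there were 4 in IL-13 against control, 3 in ATRA against control, 5 in IL-13 with ATRA against control, 4 in IL-13 with ATRA against IL-13 and 3 in IL-13 with ATRA against ATRA. Over all genes, 23.9%, 15.1%, 28.2%, 19.1% and 12.9% passed that level in the same order, so the counts among the 17 lie near the background. Median differences of the 17 were 0.14, 0.01, -0.17, -0.13 and -0.08 in the same order. A few uncalled genes had wide differences and are named after their values were seen. Lrp1, an endocytic receptor of the LDL receptor family, read 11.05 and 8.54 with IL-13 at 12 h and 24 h against 12.70 and 11.11 in control cells (difference -2.11 ± 0.45, SE; limma adjusted p = 0.0972). Lrp1 was called with normexp correction (-2.01, adjusted p = 0.0468) and without the IL-13 array at 12 h (-2.83, adjusted p = 0.0414), and its adjusted p ran from 0.0414 to 0.419 over the alternatives. In the same comparison Plgrkt differed by 0.77 ± 0.13 (SE, limma adjusted p = 0.0644) and Cpb2 by -0.98 ± 0.26 (SE, limma adjusted p = 0.129). Anxa2 read 11.72 and 10.75 with ATRA against 12.86 and 13.33 in control cells (difference -1.86 ± 0.37, SE; limma adjusted p = 0.0838). It was called with normexp correction (-1.84, adjusted p = 0.029, of 0.029 to 0.374 over the alternatives). S100a10 differed by -1.39 ± 0.30 in that comparison (SE; limma adjusted p = 0.103).

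**Figure D5:**
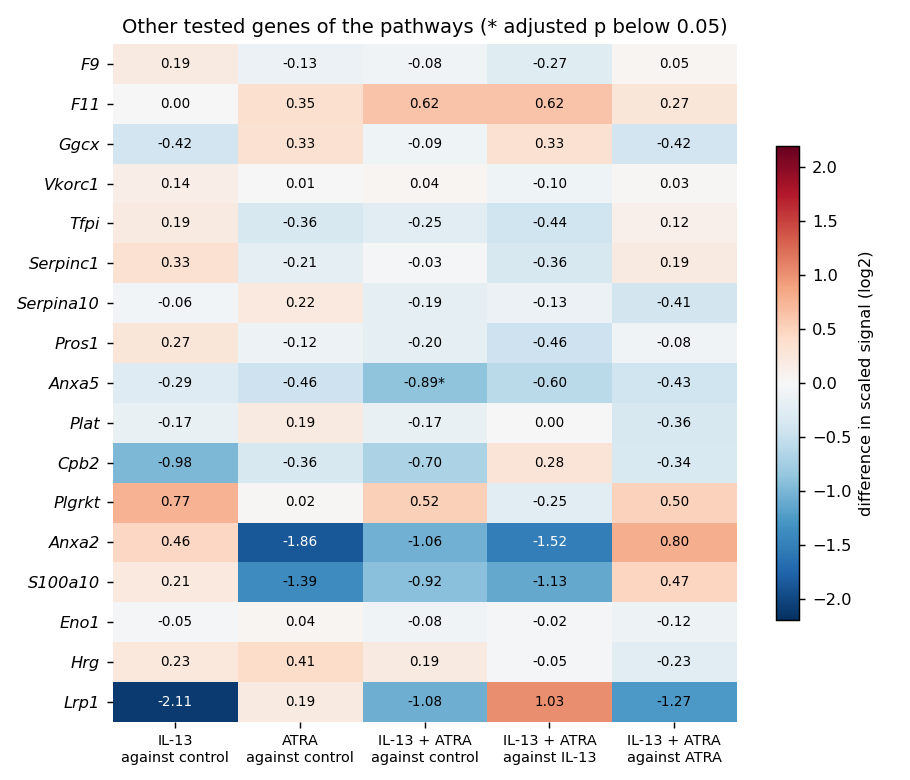
Mean difference in scaled signal (log2) of the 17 other pathway genes that passed the filter, by comparison, with red for higher and blue for lower and the value in each cell. An asterisk marks the 1 call, Anxa5 at -0.89 in IL-13 with ATRA against control. The widest uncalled values are those of Lrp1 with IL-13 (-2.11) and Anxa2 with ATRA (-1.86).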

How the data were processed

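Total RNA of 8 RAW264.7 samples was labelled with Cy3 and hybridised to Agilent mouse arrays (design 014868, probes annotated on mm9). Per the file headers, Feature Extraction 10.7.1.1 made the processed intensity of each spot, background-subtracted and detrended within the array, together with flags for well above background and saturation. The authors also deposited a table of log2 values, whose scale and centring are not stated; each column had Spearman correlations of at least 0.999996 with its own array's intensities and a median of 4.57.

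From the deposited intensity, 43379 non-control spots were averaged to 41174 probes, and log2 values were scaled to each array's 75th percentile. Names were updated through RefSeq (27668 probes by accession, 5589 by symbol, 471 by synonym, 7446 kept as in the file). The filter kept probes flagged as well above background at both times of 1 or more treatments (24042), and the probe of highest mean signal stood for its gene (15455 genes). limma 3.58.1 in R 4.3.3 fitted treatment and time over all 8 arrays (3 residual degrees of freedom, 2.41 prior), with Benjamini-Hochberg adjustment over all genes at 0.05; arrays have no read depth, and their number limits the precision. Alternatives were normexp with an offset of 50, quantile normalization, the deposited table, no filter, no time term, and each array left out.

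The members and lists were chosen with earlier results of these data known. Named were all members, other pathway genes that were called, and the 3 genes with the highest Pearson r to each tested member. A few uncalled pathway genes with wide differences were also named, after their values were seen. One pathway gene of the list is not reported here, and the pathway counts leave it out.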

Additional observations from a re-analysis of the deposited data

Results flagged for a closer look

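Some treatment differences had opposite signs at 12 h and 24 h, and whether the times differed was not tested. For F10, IL-13 with ATRA minus IL-13 was 0.35 at 12 h and -0.27 at 24 h, a change of -0.62 between the times. For Plaur, IL-13 with ATRA minus control was 0.31 and -0.19, a change of -0.50, and IL-13 with ATRA minus ATRA was 0.54 and -0.10, a change of -0.64. For Procr, IL-13 with ATRA minus control was 0.08 and -0.40, a change of -0.48. In all 4 cases the 24 h value was the lower. All 4 are differences of IL-13 with ATRA, so they share the arrays of that treatment and are not independent. The 24 h arrays were on another slide, although each difference lies within a slide.

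Probes left out of the fit by the filter were well above background on some arrays while both control arrays were not. The F7 probe read 4.37 on the array with IL-13 and ATRA at 12 h and 3.75 on the IL-13 array at 24 h, against 2.87 and 2.88 on the control arrays. The F3 probe A_51_P236846 read 3.01 on the IL-13 array at 24 h, against 1.78 and 2.04 on the control arrays.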

How the results depend on the processing

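Of 20 member differences recomputed under 13 alternatives each, 14 kept their sign in every one. The other 6, none of them called, reached 0 or the other sign in at least 1. Set against the SD of the 12 h and 24 h differences of the same comparison, 224 values stayed within it and 36 moved beyond it. Dropping the filter, the time term or an array outside the comparison cannot move a member's difference. Many of the 224 were therefore fixed in advance, and the count does not measure robustness. No called difference changed sign. Normexp correction gave 2.88 for F10 in IL-13 against control, where the main value was 4.20. With no filter, 0 members were called in any comparison, and the calls over all genes were 1 in IL-13 against control, 0 in ATRA against control, 36 in IL-13 with ATRA against control, 7 in IL-13 with ATRA against IL-13 and 4 in IL-13 with ATRA against ATRA, against 197, 288, 1314, 408 and 56. Leaving out 1 array gave 2 to 359, 1 to 172, 104 to 1452, 15 to 519 and 3 to 45 in the same order, and 0 to 1 members called in each comparison but ATRA against control, and IL-13 with ATRA against IL-13, where it was 0. Without the time term, that is with no replicate block, members called were 0 in IL-13 with ATRA against IL-13 and 1 in IL-13 with ATRA against ATRA; normexp also gave 1 in the last. Among other pathway genes, normexp called 1 in IL-13 against control (Lrp1), 1 in ATRA against control and 1 in IL-13 with ATRA against IL-13 (Anxa2 in both). Leaving out 1 array gave 0 to 1 in IL-13 against control (Lrp1) and 0 to 2 in IL-13 with ATRA against control (Anxa5 and Cpb2), where no filter gave 0. Calls in IL-13 against control split 105 higher to 92 lower, against 113 to 53 with quantile normalization and 110 to 53 in the authors' deposited values. The cause of these moves was not tested. Dim probes limit F7, F3, F13a1, Thbd and Serpinb2.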
